A study of Mus musculus with 2 samples.

Results

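The genes described here mark T cells and their main subsets. They are the constant parts of the T cell receptor chains (Trac, Trbc1, Trbc2 and Trdc), the coreceptors Cd4, Cd8a and Cd8b1, the transcription factors Foxp3 and Lef1, and the interleukin-7 receptor chain Il7r. They were chosen by gene symbol, and all 10 symbols were found once each among the 55386 features of both count tables. The cells came from the adventitia, the outer layer of the aortic wall, of 16-week-old mice of the strain RankCreRosa26eYFP, sorted as viable CD45+ immune cells. In this strain a Cre recombinase expressed from the Rank locus switches on eYFP, a lineage mark used in the study to trace macrophages from the yolk sac and not to follow T cells. One library pooled 3 untreated animals (steady state), and one pooled 2 animals that had received angiotensin II (AngII), a peptide that raises blood pressure and inflames the arterial wall, at 1.8 µg/kg/min for 10 days. With 1 library per condition there was no replicate of either condition. Every interval below is a 95% interval that covers counting error only, no p-value was computed, and a difference between the libraries cannot be told apart from a difference between the animals or the preparations.

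A T cell recognises its target through a receptor made of an alpha and a beta chain or of a gamma and a delta chain, and the receptor signals through the CD3 proteins. CD4 and CD8 help the alpha-beta receptor to bind its target. Mature alpha-beta T cells usually carry one of these coreceptors, whereas developing T cells in the thymus pass through a stage with both. Foxp3 defines regulatory T cells, which hold back immune responses. Lef1 is a partner of Tcf7 in early and naive T cells. Il7r binds a cytokine that keeps naive and memory T cells alive, and it is also carried by innate lymphoid cells.

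The 2 beta constant genes lie next to each other on chromosome 6, 6848 bases apart, and their coding parts of 518 bases differ at 23 bases (95.6% identity). Their last 150 coding bases are shown because this is where a read can tell one gene from the other, and capitals mark the 22 bases that differ in this stretch (GRCm38, plus strand, exons joined). The Trbc1 stretch lies within chr6:41538586-41539662 and the Trbc2 stretch within chr6:41547098-41548178.
Trbc1: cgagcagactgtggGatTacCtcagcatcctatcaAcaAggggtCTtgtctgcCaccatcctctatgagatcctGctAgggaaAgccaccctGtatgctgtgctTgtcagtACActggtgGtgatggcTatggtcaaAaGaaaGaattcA
Trbc2: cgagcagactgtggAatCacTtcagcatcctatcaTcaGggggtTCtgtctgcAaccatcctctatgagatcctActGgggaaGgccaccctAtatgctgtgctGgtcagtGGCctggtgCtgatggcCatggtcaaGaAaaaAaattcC
The first 259 coding bases were identical, and the parts after the stop codon shared no run longer than 8 bases. Of the 602 windows of a read length (91 bases) in the Trbc2 transcript, 201 (33.4%) also occurred in Trbc1, all of them starting within the first 292 bases. A read from the 5′ part of the transcript could therefore not be assigned to one gene, whereas a read from its 3′ end, where this library chemistry begins, could. The other members lie at chr6:124864692-124888221 (Cd4, minus strand), chr6:71373427-71379173 (Cd8a, plus strand), chr6:71322788-71337494 (Cd8b1, plus strand), chr14:54220521-54224206 (Trac, plus strand), chr14:54142851-54148868 (Trdc, plus strand), chrX:7573644-7595245 (Foxp3, plus strand), chr3:131110471-131224356 (Lef1, plus strand) and chr15:9505788-9530176 (Il7r, minus strand). Cd8b1 and Cd8a are neighbours, 35932 bases apart, and Trdc lies 71652 bases upstream of Trac.

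The libraries differed widely in size and depth. After a filter on genes and mitochondrial counts, 306 of 346 barcodes remained at steady state with a median of 9105 UMIs (unique molecular identifiers, each counting 1 captured RNA molecule). On AngII 4198 of 4419 remained, with a median of 1092 UMIs. The libraries shared 0 barcodes. T cells were taken by a gate that used no member: a cell needed at least 1 UMI of Cd3d, Cd3e and Cd3g together, more than it had of 3 B cell genes (Cd79a, Cd79b, Ms4a1) and more than of 5 macrophage genes (C1qa, C1qb, C1qc, Adgre1, Csf1r). The gate held 46 cells at steady state (15.0% of the filtered cells, Clopper-Pearson interval 11.2 to 19.5%; median 8318 UMIs) and 278 on AngII (6.62%, 5.89 to 7.42%; median 1282 UMIs). Of the T-gated cells, 44 of 46 at steady state and 82 of 278 on AngII had at least 5000 UMIs. Their median was 18 CD3 UMIs at steady state and 4 on AngII, and 3 and 38 of them entered on 1 CD3 UMI. The gated share depends on depth, and whether the share of T cells differed between the libraries was not tested. Fixed marker lists were then read in the gated cells. The T cell list holds the 3 CD3 genes of the gate, the B cell list its 3 B cell genes, and the macrophage list Adgre1 and Csf1r. The values that follow are therefore partly set by the gate. All 8 T cell markers were detected in the gate of both libraries. At steady state 8 of 8 B cell markers were at 0 there, and the B cell list stood at 13.5 CPM on AngII (UMIs of the genes scaled to a group total of 1000000 UMIs). Macrophage markers (8 genes) summed to 41.4 CPM in the T-gated cells at steady state and to 632 CPM on AngII, against 10144 and 11419 CPM in the other cells.

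Every member that could be measured was higher in the T-gated cells than in the other cells of its library. A gene with at least 20 UMIs was called higher where its ratio of CPM was at least 2 and the interval of the ratio lay above 1. At steady state 9 of 9 measurable members met this, where 9.08% of all 10050 genes tested did. On AngII 10 of 10 did, where 18.1% of 12977 genes did. The symbols name T cell genes, so these counts describe the gate and are no test of it.

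**Figure D1:**
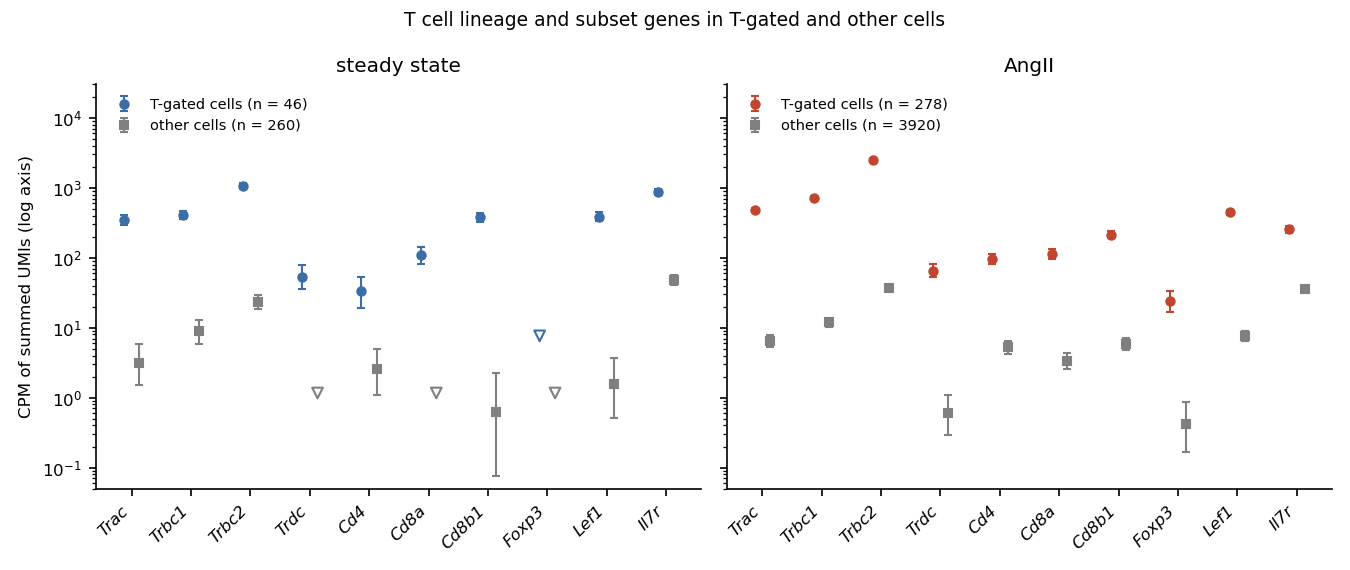
Level of each gene as CPM of summed UMIs (log axis) in T-gated (circles) and other cells (grey squares) of the steady state and AngII libraries, with exact Poisson 95% intervals; open triangles are the upper limit where no UMI was counted. The T-gated cells lie above the other cells for each gene with a UMI, from 7.05-fold for Il7r on AngII to 600-fold for Cd8b1 at steady state.

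Of the receptor chains, the beta constant gene Trbc2 was found in 45 of 46 T-gated cells at steady state, at 1061 CPM against 23.4 CPM in the other cells (ratio 45.4, interval 35.5 to 58.7). On AngII it was found in 217 of 278 cells, at 2466 against 37.2 CPM (ratio 66.2, 60.8 to 72.3). Trbc1 was found in 21 of 46 and in 140 of 278 cells, at 410 and 713 CPM. At steady state each of the 21 cells with Trbc1 also held Trbc2, and 24 held Trbc2 alone. On AngII 126 cells held both genes, 91 held Trbc2 alone and 14 held Trbc1 alone. Trac, the alpha constant gene, was found in 35 of 46 and in 125 of 278 cells (348 and 485 CPM), and each of the 35 cells at steady state also held a beta gene. At least 1 receptor gene was counted in 45 of 46 cells at steady state and in 239 of 278 on AngII.

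The delta constant gene Trdc was rare in both libraries. It was counted in 3 of 46 T-gated cells at steady state (26 UMIs, 53.9 CPM) and in 8 of 278 on AngII (92 UMIs, 65.3 CPM). The other cells held 0 UMIs at steady state, which puts the T-gated cells at least 56.8-fold higher at a floor of 3 UMIs over the group, and 10 UMIs on AngII. A few cells carried most of the counts. At steady state the 3 cells held 1, 11 and 14 UMIs. The cell with 14 also held 14 UMIs of Cd163l1, a scavenger receptor of gamma-delta T cells, and 7 of the gamma constant gene Trgc1, with no Trac UMI. The cell with 11 differed, with 5 UMIs of Trac, 10 of Trbc2, 7 of Lef1, 1 of Trgc1 and 0 of Cd163l1. The cell with 1 Trdc UMI held 11 UMIs of Cd8b1. On AngII 1 cell held 57 and 1 cell held 23 of the 92 UMIs. Both lay in cluster 12 (described below) and both held Trgc1 (7 and 13 UMIs), Cd163l1 (7 and 5 UMIs) and 9 UMIs of the delta variable gene Trdv4. The other 6 T-gated cells held 1 to 3 UMIs each.

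The coreceptor genes split the cells. Cd8a was found in 16 of 46 T-gated cells at steady state (34.8%, 21.4 to 50.2%) and Cd8b1 in 18, and all 16 cells with Cd8a also held Cd8b1. The levels were 108 and 379 CPM. Cd8a had 0 UMIs in the other cells, which gives a ratio of at least 114, and Cd8b1 had 2. Cd4 was found in 9 of 46 cells (19.6%, 9.36 to 33.9%) at 33.2 CPM against 2.53 CPM in the other cells (ratio 13.1, 5.30 to 35.4). A single cell held Cd4 together with a Cd8 gene. On AngII, Cd8a was found in 43 of 278 T-gated cells (15.5%, 11.4 to 20.3%), Cd8b1 in 65 and Cd4 in 54 (19.4%, 14.9 to 24.6%). There 24 cells held Cd4 together with a Cd8 gene, 30 held Cd4 alone and 54 a Cd8 gene alone. Cd8a and Cd8b1 were found together in 30 of these 278 cells.

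Foxp3 was counted on AngII only. The steady state library had 0 UMIs of it in 46 T-gated cells, which allows a share of cells with a UMI of up to 7.71% (Clopper-Pearson). On AngII 34 UMIs lay in 8 of 278 T-gated cells (2.88%, 1.25 to 5.59%; 24.1 CPM), and 7 UMIs in the other cells. Of the 8 cells, 7 lay in cluster 12 and held 3 to 9 UMIs. All 7 held Ikzf2 and Ctla4, genes of the regulatory T cell list, and 4 held Cd4. The 8th lay in cluster 4 and held 1 UMI. Ikzf2 was not particular to cells with Foxp3, since 529 of its 639 UMIs in AngII T-gated cells lay in cluster 4. One cell with 6 UMIs of Foxp3 and 13 of Ikzf2 was kept out of the gate, since it held 6 CD3 UMIs and no fewer of the B cell or macrophage genes.

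Lef1 was found in 33 of 46 T-gated cells at steady state (387 CPM against 1.58 CPM in the other cells) and in 111 of 278 on AngII (449 against 7.65 CPM). Il7r was found in 38 of 46 cells at steady state, at 879 CPM, and in 55 of 278 on AngII, at 255 CPM. In the other cells it stood at 48.0 CPM at steady state (ratio 18.3, 15.2 to 22.2) and at 36.1 CPM on AngII, where its ratio of 7.05 (6.17 to 8.05) was the lowest among the members.

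The share of cells with a UMI differed between depths. On AngII, Cd4 was found in 3 of 112 T-gated cells under 1000 UMIs, in 2 of 59 from 1000 to under 2000, in 8 of 25 from 2000 to under 5000 and in 41 of 82 from 5000 UMIs on (50.0%, 38.7 to 61.3%). Cd8a was found in 4, 9, 3 and 27 cells of the same bins, the last being 32.9% (22.9 to 44.2%). At steady state 44 of 46 cells fell in the deepest bin, with Cd4 in 9 (20.5%, 9.80 to 35.3%) and Cd8a in 15 (34.1%, 20.5 to 49.9%). Trdc was found in 4, 1, 0 and 3 cells of the AngII bins, and Foxp3 in 0, 1, 4 and 3. Cells with at least 2 UMIs of the B cell genes and no CD3 UMI (B-gated) should lack these genes, although on AngII 55 of 213 lay in the B cell-like cluster described below, against 50 of 60 at steady state. They held Cd4 in 1 of 60 at steady state (median 5708 UMIs) and in 1 of 213 on AngII (median 3010 UMIs). Cd8a, Trdc and Foxp3 were at 0 in the B-gated cells of both libraries.

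To set the libraries at 1 depth, each cell was thinned to a fixed number of UMIs. At 1000 UMIs, which left out 112 of the AngII cells and 0 at steady state, Cd4 was found in 6.52% (1.37 to 17.9%) of 46 cells at steady state and in 8.43% (4.69 to 13.7%) of 166 on AngII. At 5000 UMIs the values were 18.2% (8.19 to 32.7%) of 44 cells and 31.7% (21.9 to 42.9%) of 82. Cd8a at 5000 UMIs was found in 25.0% (13.2 to 40.3%) and in 23.2% (14.6 to 33.8%). The intervals of the 2 libraries overlapped for Cd4 and for Cd8a at both depths. Trdc (6.82 and 3.66%) and Foxp3 (0 and 3.66%) rested on 3 cells or fewer.

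**Figure D2:**
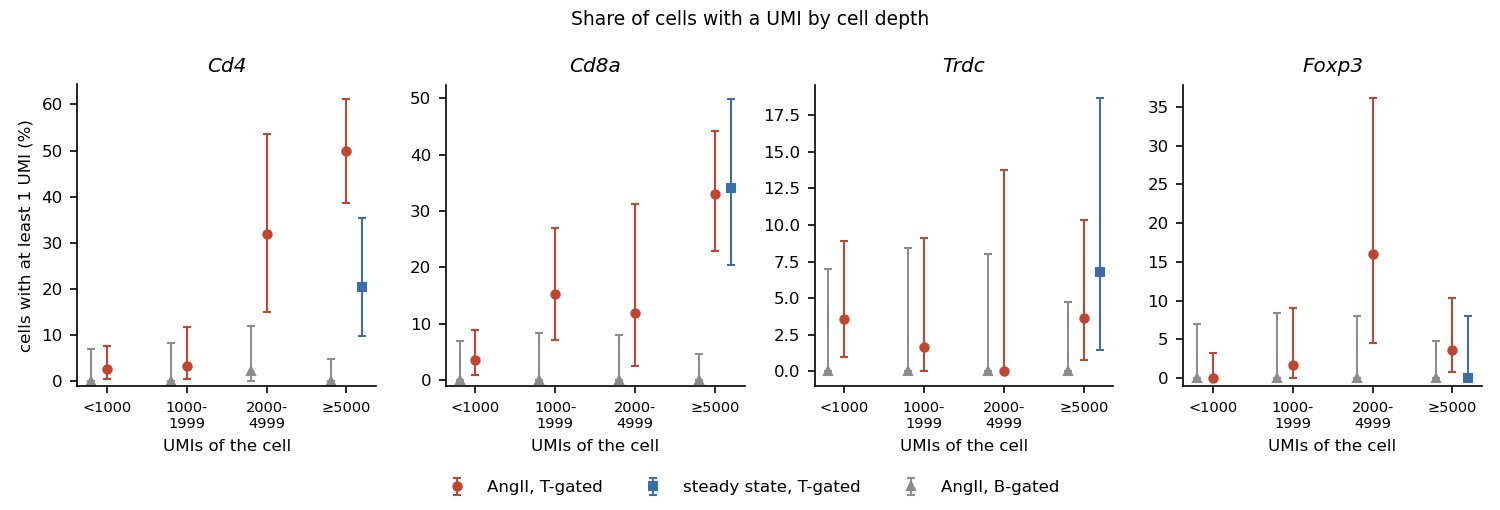
Share of cells with at least 1 UMI (%) of Cd4, Cd8a, Trdc and Foxp3 by the total UMIs of the cell, in AngII T-gated cells (circles), steady state T-gated cells (squares) and AngII B-gated cells (triangles), with Clopper-Pearson 95% intervals; bins of fewer than 5 cells are left out. The share of AngII T-gated cells with Cd4 goes from 3 of 112 cells in the shallowest bin to 41 of 82 in the deepest.

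Cells were then clustered within each library without the members among the variable genes. At steady state 43 of the 46 T-gated cells fell in 1 T cell-like cluster of 51 cells. On AngII they fell mainly in a pair of T cell-like clusters, 184 in cluster 4 (315 cells) and 55 in cluster 12 (68 cells), with the other 39 spread over 7 clusters. Cluster 4 was led by Cd3g, Cd3d, Trbc2, Tcf7, Dntt and Lef1 among others, and cluster 12 by genes that included Skap1, Il2rb, Cd247 and Cxcr6. Their depth differed: 34 of the 184 T-gated cells of cluster 4 had at least 5000 UMIs, against 45 of the 55 of cluster 12. The comparison below is therefore given for these deep cells, with the 44 deep T-gated cells of the steady state library beside them.

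**Figure D3:**
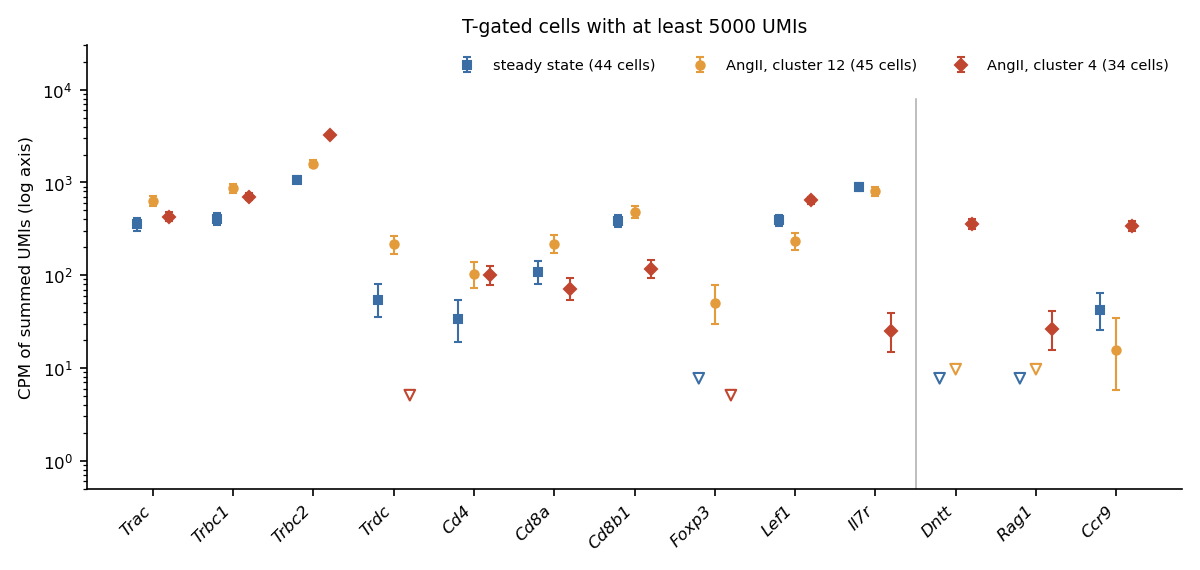
CPM of summed UMIs (log axis) with exact Poisson 95% intervals in T-gated cells with at least 5000 UMIs, for the steady state library (squares), AngII cluster 12 (circles) and AngII cluster 4 (diamonds); open triangles are upper limits where no UMI was counted, and Dntt, Rag1 and Ccr9 to the right of the line are no members. Il7r lies at 24.8 CPM in cluster 4 and above 800 CPM in the other groups.

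Il7r separated the AngII clusters most clearly among the members with UMIs in both. It stood at 24.8 CPM in the deep cells of cluster 4, where 6 of 34 held it, at 805 CPM in those of cluster 12 (34 of 45 cells) and at 890 CPM in those of the steady state library (38 of 44 cells). The ratio of cluster 4 to cluster 12 was 0.0309 (0.0180 to 0.0496). Lef1 went the other way, at 644, 231 and 390 CPM in cluster 4, cluster 12 and steady state (ratio of cluster 4 to cluster 12 2.78, 2.21 to 3.54). Trbc2 stood at 3218, 1596 and 1072 CPM (ratio 2.02, 1.84 to 2.21). The deep cells of cluster 4 held 6 to 138 UMIs of Trbc2 each, with a median of 74.5, and those of cluster 12 held 0 to 50 with a median of 12. In all, 2 of 9 measurable members were called higher in cluster 4 and 4 lower (Cd8a, Cd8b1, Trdc and Il7r), where 17.1% and 11.7% of 6497 genes were. Trac (428 and 631 CPM), Trbc1 (702 and 865 CPM) and Cd4 (101 and 103 CPM) were not called.

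The coreceptors were combined differently in these clusters. Of the 34 deep cells of cluster 4, 21 held Cd4 together with Cd8a or Cd8b1 (61.8%), 9 held a Cd8 gene alone, 3 Cd4 alone and 1 neither. Of the 45 deep cells of cluster 12, 1 held both, 17 a Cd8 gene alone, 15 Cd4 alone and 12 neither. At steady state 1 of 44 held both, 16 a Cd8 gene alone, 8 Cd4 alone and 19 neither. Cells with both in cluster 4 were the deepest, with a median of 24903 UMIs against 7881 over the deep cells of cluster 12 and 8367 at steady state. Thinned to 5000 UMIs, 4 of 34 cells of cluster 4 (11.8%, 3.30 to 27.5%) held both, against 0 of 45 (up to 7.87%) and 0 of 44 (up to 8.04%). The thinned shares overlap in their intervals, and no doublets were removed from these data. The deep cells of cluster 4 held Cd8a in 11 of 34 and Cd8b1 in 29, with 10 holding both, and those of cluster 12 held them in 15 and 17 of 45, with 14 holding both. By summed UMIs, Cd8a and Cd8b1 stood at 71.8 and 117 CPM (52 and 85 UMIs) in cluster 4 and at 218 and 484 CPM (83 and 184 UMIs) in cluster 12.

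**Figure D4:**
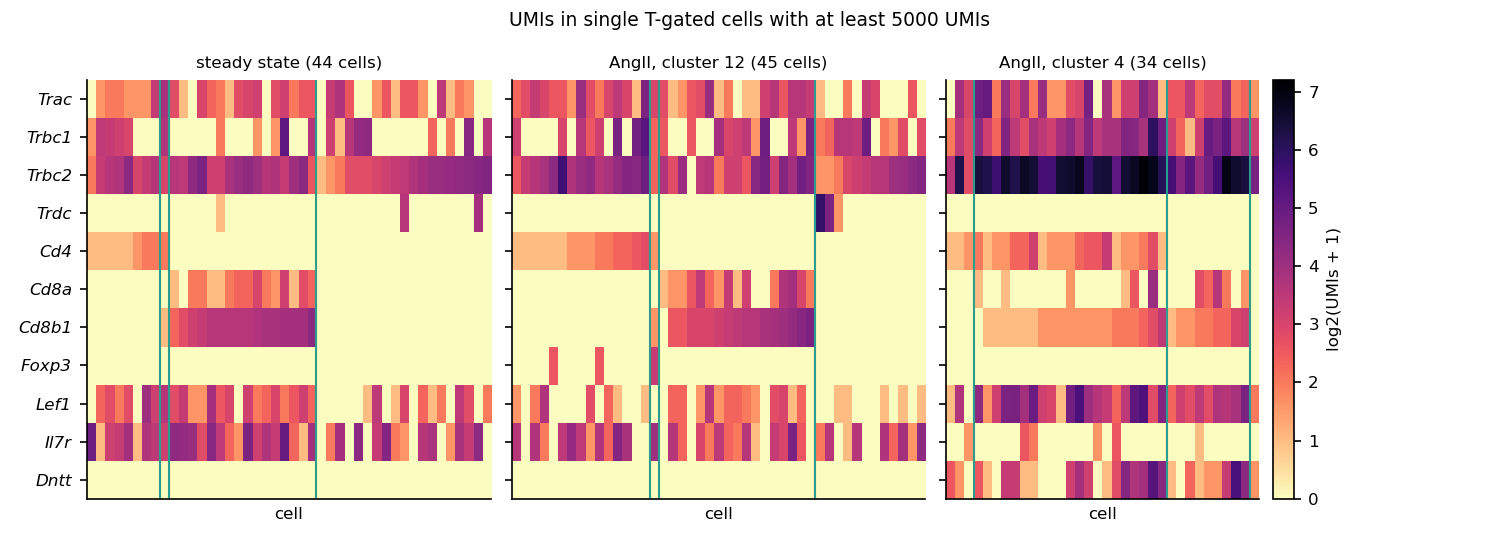
UMIs, as log2(UMIs + 1), of each member and of Dntt in single T-gated cells with at least 5000 UMIs, 1 column per cell, for the steady state library (44 cells), AngII cluster 12 (45) and AngII cluster 4 (34); green lines part, from left to right, cells with Cd4 alone, with Cd4 and a Cd8 gene, with a Cd8 gene alone and with neither. Cluster 4 holds 21 cells with Cd4 and a Cd8 gene, where the other groups have 1 each. It holds Dntt in 27 cells, where the other groups have none.

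A list of 10 genes of developing T cells, drawn up after the leading genes of cluster 4 had been seen, was read beside the members. Dntt, the terminal transferase that adds bases where receptor gene segments are joined, was counted in 27 of the 34 deep cells of cluster 4 (357 CPM), in 0 of 45 of cluster 12 and in 0 of 44 at steady state. Thinned to 5000 UMIs it was still found in 20 of 34 cells of cluster 4 (58.8%, 40.7 to 75.4%). Rag1, which cuts the receptor genes, was counted in 5 cells of cluster 4 (19 UMIs) and Rag2 in 3, and both were at 0 in the deep cells of the other groups. Sox4 (432 against 2.63 CPM), Arpp21 (101 against 2.63 CPM), Cd24a (192 against 5.26 CPM) and the chemokine receptor Ccr9 (339 against 15.8 CPM) were also higher in cluster 4 than in cluster 12, so that all 5 genes of the list with at least 20 UMIs were called higher. Dntt and the other genes of this list were among those the clusters were made from or named for, so their difference between clusters is a description. All 27 deep cells with Dntt held Lef1, 4 held Il7r, and none held Trdc or Foxp3. The labels give all cells as adventitial, and whether lymphoid tissue lying beside the aorta was collected with it was not tested. The proliferation gene Mki67 was found in 13 of the 34 deep cells of cluster 4 and in 4 of the 45 of cluster 12. The 150 shallower T-gated cells of cluster 4 held Dntt in 34, and macrophage markers summed to 2102 CPM in them against 494 CPM in the 34 deep ones, whose part in the levels was not tested.

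T-gated cells of AngII were compared with those of the steady state. Over all T-gated cells, 3 of 10 members were called higher on AngII, where 12.5% of 8315 genes were, and 1 lower, where 6.03% were. Cd4 stood at 96.5 against 33.2 CPM (ratio 2.91, 1.73 to 5.24), Trbc2 at 2466 against 1061 CPM (2.32, 2.12 to 2.56), and Foxp3 at 24.1 CPM against 0, which is at least 3.88-fold higher at a floor of 3 UMIs. Il7r was the member called lower (ratio 0.290, 0.251 to 0.335). Cd8a (ratio 1.06), Trdc (1.21) and Lef1 (1.16) had intervals that included 1, and Trac (1.39), Trbc1 (1.74) and Cd8b1 (0.560) differed by less than 2-fold.

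The Cd4 call did not hold with cells thinned to 1000 UMIs (ratio 1.39, 0.392 to 7.47) or to 500 UMIs (0.662, 0.179 to 3.65). Nor did it hold as a mean of the CPM of each cell (1.32). With cells thinned to 2000 UMIs the ratio was 3.15 (1.11 to 12.3). That of Trbc2 fell short of 2 at 1000 UMIs (1.73), as a mean over cells (1.78) and when cells with B cell or macrophage UMIs were kept in the gate (1.83).

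Some of these calls rested on cluster 4. Without its 184 cells, Il7r stood at 630 CPM on AngII (ratio to steady state 0.717, 0.619 to 0.829) and was no longer called, Trbc2 at 1432 CPM (1.35, 1.20 to 1.51) was no longer called, and the ratio of Lef1 was 0.509 (0.397 to 0.650). Cd4 (3.32, 1.88 to 6.18) and Foxp3 (at least 10.1-fold) were still called higher, and Trdc was called as well (156 against 53.9 CPM; 2.89, 1.84 to 4.68), with 57 and 23 of its 82 UMIs in the pair of cells named above. The counts were then 3 higher and 0 lower, where 6.21% and 3.54% of 6041 genes were. The 94 cells left on AngII included 39 that lay outside clusters 4 and 12, in clusters not named T cell-like (108166 of 527302 UMIs). Their part in the values without cluster 4, here and in the lists below, was not tested.

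Lists of T cell genes were read in the same way. Of 16 genes of receptor signalling (Lat, Lck, Zap70 and others), 16 were called higher in T-gated than in other cells of both libraries, where 9.08% of all genes were at steady state and 18.1% on AngII. Between AngII and steady state 1 of 16 was called, higher on AngII (Tcf7, 727 against 319 CPM), where 12.5% of all genes were, with a median log2 ratio of -0.0011 against 0.10 over all genes. Without cluster 4 Tcf7 stood at 258 CPM (ratio 0.808, 0.637 to 1.02) and 0 of 16 were called. Of 10 genes of naive and recirculating T cells, 6 were called lower on AngII, where 6.03% of all genes were (median log2 ratio -0.95), among them the lymph node homing receptor Ccr7 (83.7 against 406 CPM), the exit receptor S1pr1 (109 against 282 CPM) and the transcription factor Klf2 (367 against 874 CPM). Without cluster 4 the list had 2 lower, where 3.54% of all genes were, Ccr7 (91.0 CPM) and Actn1 (74.0 against 170 CPM), and a median of -0.53. In the other cells 3 of the 10 were lower on AngII and 2 higher, where 9.09% and 4.88% of all genes were. There S1pr1 (22.0 against 67.9 CPM) and Klf2 (468 against 994 CPM) were again called lower, and Ccr7 (61.4 against 48.3 CPM) was not. Of 8 measurable genes of regulatory T cells, 3 were called higher over all T-gated cells (Ctla4, Ikzf2, Tnfrsf4), where 12.5% of all genes were. Without cluster 4 all 8 were, where 6.21% of all genes were (median log2 ratio 1.56, against 0.06 over all genes). Tnfrsf4 then stood at 159 against 8.29 CPM, Ctla4 at 152 against 20.7 CPM and Tnfrsf18 at 311 against 78.7 CPM. Of the 639 Ikzf2 UMIs of AngII T-gated cells, 529 lay in cluster 4. Some UMIs of other genes of the list lay in few cells. Over all T-gated cells of AngII, the 8 with a Foxp3 UMI held 48 UMIs of Ctla4, and the 270 without one held 57. For Tnfrsf9 the counts were 33 and 25. The part of these 8 cells, and of the 39 T-gated cells outside clusters 4 and 12, in the list result was not tested.

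Of the cytotoxic genes, those of CD8 T cells and natural killer (NK) cells, 5 of 10 measurable without cluster 4 were called higher on AngII, where 6.21% of all genes were, among them Ccl5 (2238 against 953 CPM), Gzmb (163 against 72.5 CPM) and Gzma (656 against 4.14 CPM), and Xcl1 was called lower (74.0 against 176 CPM). NK cell markers (8 genes) summed to 557 CPM in the T-gated cells on AngII and to 162 CPM at steady state. Gzma is 1 of these 8 genes, and by itself it stood at 513 and 4.14 CPM in the same cells. Gzma thus made up most of the sum on AngII and little of it at steady state, and the rest of the sum was lower on AngII. The sum is therefore no separate measure of NK cells, and their part in these values was not tested. Of the helper T cell regulators, 5 of 11 measurable were called higher without cluster 4, with Pdcd1, an inhibitory receptor, at 75.9 against 4.14 CPM, Cxcr6 at 275 against 116 CPM, and Izumo1r at 83.4 against 22.8 CPM. Over all T-gated cells 1 of 10 cytotoxic genes was called higher and 1 lower, and 2 of 11 helper regulators higher and 1 lower, shares near those of all genes (12.5% higher and 6.03% lower).

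Between the AngII clusters, the deep cells of cluster 4 were called lower than those of cluster 12 in 8 of 9 measurable cytotoxic genes, 7 of 8 regulatory T cell genes, 7 of 9 helper regulators and 5 of 10 naive and recirculating genes, where 11.7% of all genes were. Nkg7, a granule protein of cytotoxic cells, stood at 12.4 against 789 CPM, Cxcr6 at 0 against 318 CPM and Tnfrsf4 at 4.14 against 179 CPM. The exceptions that were higher in cluster 4 were Ikzf2 (604 against 163 CPM) in the regulatory list and Tcf7 (1074 against 295 CPM), Satb1 (800.3 against 279 CPM) and Actn1 (192 against 57.9 CPM) in the naive list. Only the members were kept out of the clustering, so the genes of these lists could shape the clusters. Cxcr6 was among the leading genes of cluster 12 and Tcf7 among those of cluster 4. These differences between the clusters are therefore a description.

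Across the 21 clusters of both libraries, the receptor and coreceptor genes peaked in the 3 T cell-like clusters. Cd4 had its next level in AngII cluster 2 (15.5 CPM, 28 UMIs in 9 of 604 cells), and Cd8b1 in AngII cluster 0 (19.6 CPM in 21 of 703 cells), both unnamed clusters. In the B cell-like cluster of AngII, 46 UMIs of Trbc2 lay in 1 of 57 cells, and at steady state the B cell-like cluster had 0. Trbc2 was also counted in shallow cells outside the gate, at 183 CPM in the other AngII cells under 1000 UMIs against 17.6 CPM in those from 5000 UMIs on. Lef1 (36.8 against 2.59 CPM), Trac (33.6 against 2.67 CPM) and Cd8b1 (26.4 against 3.29 CPM) showed the same order. Il7r did not (38.4 and 35.4 CPM). Between the libraries, 5 of 8 measurable members were called higher in the other cells of AngII, where 4.88% of 13142 genes were. They were Cd4 (2.07-fold), Cd8a (at least 3.56-fold), Cd8b1 (9.25-fold), Trac (2.06-fold) and Lef1 (4.84-fold), and 0 were called lower, where 9.09% were. The other cells include those with a CD3 UMI that the gate left out, 247 on AngII and 5 at steady state. Of the CD3 genes, Cd3e (2.88-fold) and Cd3g (3.08-fold) were called higher there as well, and Cd3d (1.78-fold) was not. The part of missed T cells in these member calls was not tested.

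**Figure D5:**
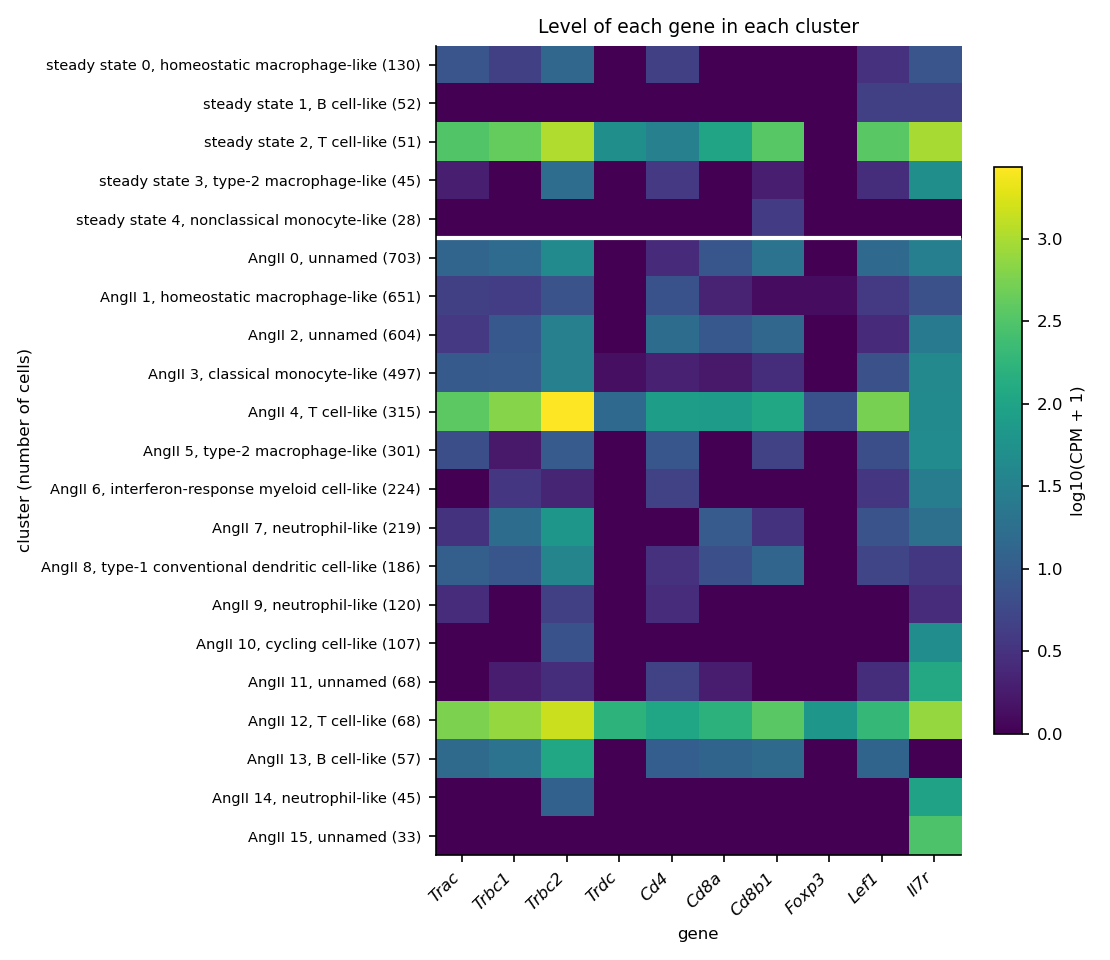
Level of each member, as log10(CPM + 1), in the 5 clusters of the steady state library and the 16 of the AngII library, with the number of cells of each cluster in brackets. The 3 T cell-like clusters hold the highest levels of the receptor genes, and Il7r is also seen in AngII clusters 15, 11 and 14.

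Il7r had a wider spread than the other members. It stood at 978 CPM in the steady state T cell-like cluster, 788 CPM in AngII cluster 12 and 41.2 CPM in AngII cluster 4. Outside these, the highest levels were 299 CPM in AngII cluster 15 (46 UMIs in 5 of 33 cells, led by Inhba and Cxcl3), 116 CPM in AngII cluster 11 (28 of 68 cells, led by Ffar2 and Ddr1), 95.4 CPM in the neutrophil-like AngII cluster 14 (3 of 45 cells) and 49.9 CPM in the type-2 macrophage-like cluster of the steady state (13 of 45 cells). Type-2 innate lymphoid cells (ILC2), which live on interleukin-7, were sought by a gate on their marker genes. At steady state that gate collected mostly cells of the homeostatic (19 of 46) and type-2 (21 of 46) macrophage-like clusters. On AngII the clusters of these names held 5 and 18 of 66, unnamed cluster 0 held 14, and others were spread over further clusters. Only 5 of the 46 cells at steady state and 10 of the 66 on AngII lay in T cell-like clusters. These held Il7r in 5 of 5 and 7 of 10 cells (70 and 86 UMIs, 1729 and 1417 CPM), Trbc2 in 5 and 7 cells (568 and 412 CPM), and no Trac, Cd4, Cd8a, Foxp3 or Trdc UMI. NK-gated cells of the AngII library (14 cells) held Trbc1 in 8, Trbc2 in 5, Trdc in 3 (4 UMIs) and Trac in 1. At steady state the NK gate held 2 cells, both with Trbc1. Beta and delta constant transcripts were thus counted in cells with no CD3 UMI.

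T-gated cells with a UMI of a subset gene were set beside those without one, and the 5 genes with the highest ratio were read for each. For Cd8a at steady state, the first was Cd8b1 (1156 against 21.2 CPM, in 16 of 16 cells), followed by Sidt1, Fam241a, Klk8 and Tdrp. For Trdc on AngII, they were Trgc1 (ratio 60.8, 30.8 to 122), Cd163l1, Sdc4, Slc15a3 and Trgc4. For Foxp3 on AngII, they were the growth factor Areg (ratio 80.5, in 3 of 8 cells), Tnfrsf9 (48.7, in 5), Ctla4 (31.1, in 8), Nt5e (20.7, in 6) and Tgif1 (19.5, in 3). For Cd4 on AngII, 3 of the 5 (Aspm, H1f1 and Nusap1) are genes of dividing cells, and Lpl had 194 UMIs in 3 of the 54 cells. Of these 54 cells, 24 were cells of cluster 4 with at least 5000 UMIs. The part of depth and cluster in this ranking was not tested. For Cd8a on AngII, Clec9a, a gene of type-1 dendritic cells, came first with 24 UMIs in 2 of 43 cells, and Cd8b1 was the 4th (ratio 4.67). At steady state the first genes were St8sia6 for Cd4 (9 cells) and F2r for Trdc (3 cells), the latter with its 20 UMIs in 1 cell.

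Likeness of pattern was read as Pearson's r of log2(CPM + 20) over the 21 clusters, among 11599 genes, as a description. The genes most like Trac and Trbc1 were both Cd3g (r = 0.994 and 0.996), and for Trbc2 it was Cd3d (0.986). For the coreceptors Cd4 and Cd8a they were Izumo1r, the folate receptor 4 gene, with Cd4 (0.966) and Cd96 with Cd8a (0.982). Trat1 came first for Lef1 (0.988), Sytl2 for Trdc (0.995) and Pdcd1 for Foxp3 (0.920). Il7r had the lowest first value, 0.848 with Tnfrsf9. The clusters of 1 library share its depth, and the T cell-like clusters set most of each r.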

How the data were processed

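Libraries were made with the 10x Genomics 3′ kit (v3.1) and, per the labels, processed with bcl2fastq and Cell Ranger 3.1.0 on GRCm38.p6. The study's methods name GENCODE M24 with an added eYFP sequence. The authors deposited filtered matrices of UMI counts (whole numbers, not normalized), with a total of 4009678 UMIs at steady state and 20481854 on AngII. Cells with 300 to 6500 genes and at most 5% mitochondrial counts were kept, and no doublets were removed. UMIs were summed over the cells of a group and given as CPM with exact Poisson intervals. Ratios have exact conditional binomial intervals, and shares of cells Clopper-Pearson intervals. A floor of 3 UMIs was used for bounds. A gene with at least 20 UMIs was called at a ratio of at least 2, or at most 0.5, with an interval that left out 1. The intervals assume independent counts, and cells of 1 library are not replicates. Clusters were made with Seurat 5.3.0 and sctransform 0.4.2 in R 4.3.3 (20 components, resolution 0.4) without the members among the variable genes, and named from 24 marker lists by shares of positive cells (a scoring chosen once the clusters were known). Coordinates and transcripts are from GENCODE M21 (GRCm38), whose identifiers for the 10 members match those of the files. List symbols Tcrg-C1 and Tcrg-C4 are Trgc1 and Trgc4 in the files. Some list results are not reported here. The calls were tested on simulated counts.

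The members and lists were chosen with earlier results of these data known. Named genes were the 10 members, the genes of the lists, for Cd4, Cd8a, Trdc and Foxp3 in each library the 5 genes with the highest ratio between T-gated cells with and without it (at least 20 UMIs in at least 5 cells), and for each member the 3 genes with the highest r over clusters, of which the text gives the first for 9 members. Other genes named, such as those leading a cluster or Mki67, were chosen after their values were seen. Per result, 12 alternatives and 2 added after seeing the data were tried where they applied: the gate, the cell filter, thinning, a mean over cells, leaving out the richest cell, and the count that makes a cell positive.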

Additional observations from a re-analysis of the deposited data

Results flagged for a closer look

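Barcodes outside the cell filter were used in no comparison, and the members were counted there above the level that 3 UMIs allow. Summed over the 10 members, the 40 barcodes left out at steady state stood at 55.3 CPM (20 UMIs, Poisson interval 33.8 to 85.4), and the 221 left out on AngII at 234 CPM (578 UMIs, 215 to 254). The gate would take 3 and 10 of these barcodes, in which the members stood at 1635 and 4665 CPM. All 3 at steady state and 8 of the 10 on AngII were left out for mitochondrial counts (median 22.6 and 5.93%). On AngII 3 of the 10 held Cd4 with a Cd8 gene and 6 held Dntt.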

How the results depend on the processing

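No paired analysis was possible because each condition has 1 library. Over the alternatives, 7 of 76 counts of called members, 128 of 357 ratios and 25 of 92 shares moved, and 3 ratios reversed. An alternative whose bound against 0 UMIs said nothing, or whose mean was 0, gave no value. On AngII all 10 members were called higher in T-gated than in other cells in every setting but thinning, where 8 were at 1000 and at 500 UMIs and 9 at 2000 UMIs. Thinning leaves fewer UMIs per cell, and for the other settings the cause was not tested. No share of all genes was set beside the counts at the thinned depths. Foxp3 and Trdc rest on 8 AngII cells each, and 0 of 46 cells with a Foxp3 UMI at steady state allows a share of such cells of up to 7.71%.

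At 1000 UMIs per cell, 4 members were called higher than in other cells at steady state and 1 higher on AngII than at steady state, with Cd4 in 6.52% and Cd8a in 13.04% of T-gated cells at steady state and Cd4 in 8.43% on AngII. At 500 UMIs 2 members were called higher than in other cells at steady state, the ratios of AngII to steady state were 0.662 for Cd4 and 0.978 for Trac, and the shares were 6.52% (Cd4) and 2.17% (Cd8a) at steady state and 3.96% (Cd4), 5.04% (Cd8a) and 0.719% (Foxp3) on AngII. At 2000 UMIs they were 8.89% (Cd4) and 11.1% (Cd8a) at steady state, and 5.61% for Foxp3 on AngII. As a mean of the CPM of each cell, called by the fold alone, the ratio of Trac was 0.980. In that setting 1 member was higher and 2 lower on AngII. No share of all genes was set beside the counts of called members at these settings. Whether those counts differ from background was therefore not tested.

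With cells that held B cell or macrophage UMIs kept, 2 members were lower on AngII. No share of all genes was set beside this count. Cd4 was then in 12.6% and Cd8a in 10.3% of AngII cells. In the T cell-like clusters these shares were 14.9 and 11.0%, with at least 1000 genes 44.1 and 27.9% (Foxp3 6.31%), and with 2 UMIs for a positive cell 12.2 and 9.71% (Cd4 8.70% at steady state). Added after seeing the data, leaving out cluster 4 gave 0 members lower, with Cd4 in 26.6% and Foxp3 in 7.45%, and cells from 5000 UMIs on held Cd4 in 50.0% and Cd8a in 32.9%.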

Other observations

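The 39 AngII T-gated cells outside clusters 4 and 12 (median 880 UMIs) carried less of most members: Trbc2 stood at 693 CPM in 22 of them, Trac at 222 CPM in 7 and Il7r at 139 CPM in 4, and Trdc and Foxp3 had 0 UMIs. Neutrophil markers (7 genes) summed to 17131 CPM there and type-1 dendritic cell markers to 2589 CPM, against 7.89 and 36.8 CPM in the deep cells of cluster 12. Cells with a CD3 UMI that the gate left out were few at steady state (5) and many on AngII (247, median 1018 UMIs), and the latter held Trbc2 at 440 CPM in 102 cells, Cd4 in 12 and Cd8a in 11.

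Cycling cell markers (6 genes) summed to 1666 CPM in the deep cells of cluster 4, with 28 of 34 cells positive, to 521 CPM in those of cluster 12 (16 of 45) and to 170 CPM in those of the steady state (12 of 44). Without cluster 4, the T-gated cells of AngII held Cd4 in 26.6% and Foxp3 in 7.45% of 94 cells.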
